A study of Homo sapiens with 30 samples.

Results

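The chromatin binding of SAP30 was compared with that of SIN3B in parental MDA-MB-231 cells, a human triple-negative breast cancer line with mesenchymal features. The comparison used 4 of the 30 samples of the series, 2 libraries immunoprecipitated with an antibody to SAP30 and 2 with an antibody to SIN3B; 18 samples came with a peak list. Each list holds the summits of ChIP-seq peaks, that is the base at which the signal of a peak was highest, with a score. No genotype or treatment set the 4 libraries apart, since all were from untreated parental cells, and the labels did not say whether replicates came from separate cultures. The labels named one input for SAP30 and another for SIN3B, so the protein, the antibody and the input cannot be told apart in any difference given here. Sequencing depth was not known for any library.

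SAP30 and SIN3B are subunits of SIN3 histone deacetylase complexes. SIN3A and SIN3B are the scaffolds, HDAC1 and HDAC2 are the catalytic subunits, and SAP30 is a small subunit that helps to hold the complex together. The complexes are brought to DNA by transcription factors, such as the MXD proteins that pair with MAX on E-box sequences, and by subunits that read methylated histone H3 at active promoters.

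The labelled cell type was compared with its markers. The mesenchymal markers VIM, CD44, AXL, CAV1 and FOSL1 all had RNA polymerase II (Pol II) summits within 1000 bp of a start site in both parental Pol II libraries, against 1 of 6 luminal and epithelial markers. That marker was EPCAM, whereas ESR1, PGR, GATA3, CDH1 and ESRP1 had none. The SAP30 lists held 35001 and 35007 summits and the SIN3B lists 26307 and 22298. The share of summits within 1000 bp of an annotated start site was 43.7% and 47.8% for SAP30 and 63.7% and 71.0% for SIN3B. These are means of 45.8% ± 2.92 (SD, n = 2) and 67.3% ± 5.14 (SD, n = 2), with no overlap between the proteins. The exact permutation test, two-sided, gave p = 0.33, the smallest value that 2 libraries against 2 allow.

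DNA from sites described further on is shown here, because motif shares moved with the rank difference between the proteins. Whether the motifs had a part in the differences was not tested. The stretches are the 30 bases around the motif nearest to the mean summit of the leading protein at promoters with the largest rank differences, read from hg19, 5′ to 3′, with the motif in capitals. Among the 10 promoters with the largest difference in favour of SAP30, 4 held the E-box CACGTG, the site of MYC, MAX and MXD family dimers, near the SAP30 summit. SPIRE2, EEF1A1, TMEM38A, ADGRB3, BICDL1 and TBC1D16 did not. Of all 9963 promoter regions with both proteins, 9.68% held the E-box in 200 bp around the SAP30 summit.
ATIC, chr2:216176799-216176828, plus strand: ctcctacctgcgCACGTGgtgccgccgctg
BRCA2, chr13:32889585-32889614, plus strand: gcgtcacggcgtCACGTGgccagcgcgggc
EPOP, chr17:36831334-36831363, plus strand: cacagacacacaCACGTGgacccggcgcgg
MTHFD1L, chr6:151187456-151187485, plus strand: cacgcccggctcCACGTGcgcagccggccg

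Among the 10 promoters with the largest difference in favour of SIN3B, 4 held CCGGAAG, the core of ETS family sites, and 3 held AAGATGGC, the core of the YY1 site, with RECQL5 in both counts. IDH3B, GATB, SLC4A1AP and SLC25A53 held neither. Of all 9963 promoter regions with both proteins, 14.3% held the ETS motif and 4.21% the YY1 motif in 200 bp around the SIN3B summit.
KRR1, chr12:75905376-75905405, minus strand: ttccggagccaCCGGAAGcagcttgcaaat
CDKAL1, chr6:20534732-20534761, minus strand: cccgccactctCCGGAAGctgcacagactt
SMG8, chr17:57287371-57287400, plus strand: tttactaacggaCCGGAAGgactctagaga
RECQL5, chr17:73663384-73663413, plus strand: ctgcctttccgcCCGGAAGtcggcgtcttg
CCT6B, chr17:33288572-33288601, plus strand: gtctggtcgccAAGATGGCgtcctccgcct
NGDN, chr14:23938911-23938940, plus strand: tgggctttgcgAAGATGGCggcgctggtga

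At sites far from promoters where SAP30 stood alone, the windows that ranked best held AP-1 sites (TGANTCA, bound by FOS and JUN family proteins) beside C/EBP-like sites (TTGCNCAA). Windows of 200 bases around the mean SAP30 summit are given for an intron of TSPAN14, an intron of RIN2 and, where SIN3B was also present but ranked low, an intron of DNAJB6, with every match to a searched motif in capitals.
TSPAN14 intron, chr10:82258626-82258825, plus strand: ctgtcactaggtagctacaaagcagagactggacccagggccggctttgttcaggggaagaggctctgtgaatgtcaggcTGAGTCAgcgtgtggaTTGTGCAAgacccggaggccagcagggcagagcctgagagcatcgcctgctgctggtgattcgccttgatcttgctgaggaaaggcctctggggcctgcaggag
RIN2 intron, chr20:19945295-19945494, plus strand: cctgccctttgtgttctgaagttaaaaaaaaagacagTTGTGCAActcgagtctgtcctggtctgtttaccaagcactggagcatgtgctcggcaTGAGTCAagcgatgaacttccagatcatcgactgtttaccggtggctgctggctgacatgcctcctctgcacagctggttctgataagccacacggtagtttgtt
DNAJB6 intron, chr7:157197746-157197945, plus strand: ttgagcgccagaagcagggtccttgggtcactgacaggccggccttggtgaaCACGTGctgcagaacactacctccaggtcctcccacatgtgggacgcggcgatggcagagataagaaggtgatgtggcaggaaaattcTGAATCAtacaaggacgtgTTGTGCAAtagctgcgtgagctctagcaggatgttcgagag

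The first question was how far the proteins shared sites. Summits of the 4 lists that lay within 1000 bp of each other were joined, which gave 34526 regions, and a protein was counted at a region when both of its libraries had a summit there. Both proteins were present at 12147 regions, of which 9963 (82.0%, exact binomial 95% interval 81.3 to 82.7) touched a promoter. SAP30 stood alone, with no SIN3B summit in either list, at 7426 regions, of which 1663 (22.4%) touched a promoter and 5763 were distal. SIN3B stood alone at 187 regions, 90 at promoters and 97 distal. With 1 library left out, a looser rule since its protein is then counted from a single list, this count rose to between 332 and 1542. A further 4517 regions had SAP30 in both lists and SIN3B in 1 of them, 257 had the reverse, and 9992 had neither protein in both replicates. Intervals on shares cover counting error only. The median span was 807 bp for regions with both proteins, 59 bp for SAP30 alone and 160 bp for SIN3B alone. A wider span reaches more start sites, and the part of width in the promoter shares was not tested.

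Nearly all SIN3B regions had SAP30, but not the other way round. Of 10161 promoter regions with SIN3B, 9963 (98.1%) had SAP30, and of 2430 distal ones, 2184 (89.9%). Of 13055 promoter regions with SAP30, 9963 (76.3%, interval 75.6 to 77.0) had SIN3B, against 2184 of 11035 distal ones (19.8%, 19.1 to 20.5). Library by library, the SAP30 share with SIN3B was 77.3% to 81.6% at promoters and 20.1% to 34.4% away from them over the 4 pairs, so the gap between promoters and distal sites was larger than the spread between pairs. By chromosome the distal share ran from 10.9% on chromosome 4 to 33.8% on chromosome 19, and the promoter share from 59.3% on X to 81.5% on chromosome 20. When all lists were limited to the length of the shortest, SAP30 stood alone at 3224 regions and SIN3B at 405.

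The rank of a summit within its own list, given here as a percentage with 0 the best and 100 the worst, went with this sharing. Among promoter regions in the best 10% for SAP30, 98.4% also had SIN3B, and in the worst 25% the share was 3.37%. Away from promoters the share fell from 84.1% in the best 10% to 5.12% in the worst 25%. Between these ends, in the 25 to 50% range, SIN3B was present at 62.2% of promoter regions (60.6 to 63.8) and at 33.4% of distal ones (31.8 to 35.0). Among regions ranked by SIN3B, SAP30 was present at 99.4% of the promoters in the best 10% and 92.7% of those in the worst 25%, and at 96% and 77.9% of the distal regions. SAP30 regions without SIN3B were thus mostly low in the SAP30 lists, with a median rank of 50.9% and 55.8% in the 2 SAP30 libraries at promoters and 62.7% and 65.7% away from them, against 15.5% and 15.9% at promoters with both proteins. Whether the missing SIN3B summits were below the detection limit of the SIN3B libraries was not tested.

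**Figure D1:**
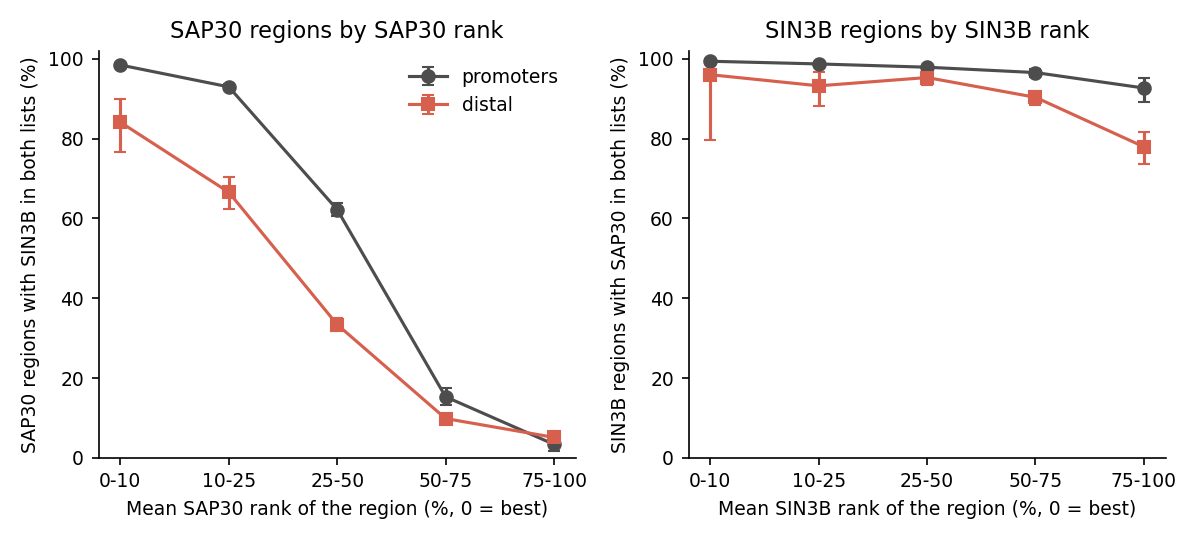
Share of regions (y axis, %) that also held the other protein in both of its lists, by the mean rank of the region in the lists of SAP30 (left) or SIN3B (right), in 5 bins from best to worst; grey circles are promoter regions, red squares distal regions, and bars are exact binomial 95% intervals. SAP30 promoter regions run from 98.4% to 3.37% and SAP30 distal regions from 84.1% to 5.12%, while SIN3B promoter regions stay between 99.4% and 92.7%.

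Distal regions of both kinds lay mainly within genes. Introns held 62.8% of distal regions with both proteins and 62.4% of those with SAP30 alone, and intergenic DNA held 30.5% and 31.9%. The median distance to the nearest protein-coding start site was 17.8 kb where both proteins were present and 26.4 kb where SAP30 was alone. Distal regions with SIN3B alone lay close to genes, at a median of 2192 bp from a start site.

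Other proteins and marks, counted within 1000 bp of the whole span of a region, differed between the classes. SIN3A had summits in both of its lists within 1000 bp of 55% of promoter regions with SAP30 and SIN3B (54.1 to 56.0), 1.38% of those with SAP30 alone (0.879 to 2.07) and 48.9% of the 90 with SIN3B alone (38.2 to 59.7). Pol II was present at 96.5%, 39.1% and 60.0% of these promoters. The promoter mark H3K4me3 stood at 98.3%, 79.7% and 67.8%, and the acetylation H3K9Ac at 98.9%, 73.7% and 70.0%. Away from promoters SIN3A was found at 11.5% of regions with both proteins and 0.156% of those with SAP30 alone, and H3K9Ac at 88.2% and 56.2%. Pol II stood at 49.5% and 10.7% of these distal regions and H3K4me3 at 44.8% and 17.7%. The SAP30-alone regions also ranked low for SAP30 and were narrower, as given above. What part rank or width had in these shares was not tested.

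In the SAP30-KO1 line, a knockout derivative of the same cells with lists for Pol II, H3K4me3 and H3K9Ac, 131 of the 650 SAP30-alone promoters that had Pol II in both parental lists (20.2%, 17.1 to 23.4) had no Pol II summit in either knockout list. The count was 103 of 9613 (1.07%, 0.875 to 1.298) where both proteins were present. In the other direction, 7 of 387 and 8 of 9149 promoters with Pol II in both knockout lists had none in either parental list. H3K4me3 was lost in this sense at 62 of 1325 (4.68%) and 6 of 9793 promoters. The knockout is 1 line, and whether the weaker peaks at SAP30-alone promoters account for the higher share was not tested.

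Gene by gene, 20098 protein-coding genes were assigned the best-ranked summit of each library within 1000 bp of any of their start sites. Both proteins were present at 10179 genes (50.6% of all), SAP30 without SIN3B at 1081 (5.38%), and SIN3B without SAP30 at 73 (0.363%). A further 1038 genes had SAP30 in both lists and SIN3B in 1, 136 had the reverse, and 7591 had neither protein in both replicates. With lists of equal length the counts for 1 protein alone were 759 and 85.

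The 10 genes that ranked best for SAP30 among those without SIN3B were SCRT1, THBS3, PPP1R3E, MAPK8IP2, ASS1, GOLGA7B, TMEM201, PTMS, PODXL2 and CDYL2. SCRT1 encodes a neural transcriptional repressor and had SAP30 ranks of 1.67% and 2.34%, with the nearest SIN3B summits 9701 and 9689 bp away. ASS1, which makes argininosuccinate in arginine synthesis, had SAP30 ranks of 8.32% and 8.18% and no SIN3B summit within 134524 bp. MAPK8IP2, a scaffold of JNK signalling, ranked at 10.3% and 5.76%, and CDYL2, a chromodomain protein gene, at 18.8% and 12.1%. Their nearest SIN3B summits lay 17114 and 16915 bp and 203066 and 127775 bp away. These 4 promoters had a strong SAP30 peak and nothing of SIN3B nearby. For THBS3 and PPP1R3E the absence came from the edge of the window, since SIN3B had summits 452 and 405 bp from the SAP30 summits of THBS3 and 481 and 407 bp from those of PPP1R3E.

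Genes among the 10 that ranked best for SIN3B without SAP30 were CCT7, BHLHE40, PCID2, EIF4A1, ZNF646, STX10, FOS, GFI1B and NACC1. CCT7 is a chaperonin subunit, and EIF4A1 is the helicase of translation initiation. SIN3B ranks were 1.66% and 9.22% at CCT7, 8.73% and 8.47% at EIF4A1, and 12.4% and 9.68% at FOS, the immediate early AP-1 gene. None of these 9 was far from SAP30. The nearest SAP30 summits were 1087 and 1098 bp away at CCT7, 1261 and 1327 bp at EIF4A1, 1544 and 1678 bp at FOS, and 1876 and 2786 bp at STX10, which shares its promoter with the immediate early gene IER2. Over all 73 genes, 69 had a SAP30 summit of both lists within 3000 bp of their SIN3B summit, against 30 of the 1081 SAP30-alone genes with a SIN3B summit of both lists within 3000 bp. Where every summit of the other protein within 3000 bp was counted, a setting chosen after seeing the data, 3 genes kept SIN3B alone (FUZ, ZNF311 and ENSG00000173366, named after their values were seen) and 1008 kept SAP30 alone. The nearest SAP30 summit lay downstream of SIN3B along the gene at 34 of 69 SIN3B-alone genes in the first replicates and 39 of 70 in the second, so neither side was preferred.

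Genes that ranked high for one protein and low for the other were counted with high set as the best 25% of both lists and low as the worst 50% or absent in both lists of the other protein. By this rule 374 genes (1.86%) were high for SAP30 and low or absent for SIN3B, of which 38 had no SIN3B summit at all, and 34 genes (0.169%) were high for SIN3B and low or absent for SAP30. Between the replicates of one protein, 40 and 69 genes for SAP30 and 400 and 159 for SIN3B were high in 1 library and low or absent in the other. Single pairs of a SAP30 and a SIN3B library gave 978 to 1337 genes that were high for SAP30 and low for SIN3B and 85 to 119 genes with the reverse. The SIN3B-high counts of the pairs were thus below the disagreement between the SIN3B replicates themselves. The imbalance of 374 to 34 depended on the longer SAP30 lists, since lists of equal length gave 158 and 138.

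Among sites that both proteins occupied, ranks were compared with limma on normal scores, in which the ranks of the genes or regions present in all 4 lists were turned into normal quantiles within each library. A positive difference means that SAP30 ranked the gene higher than SIN3B did, relative to the other genes tested. Gene promoters called at an adjusted p below 0.05 numbered 1099 with SAP30 higher (10.8% of 10179) and 1280 with SIN3B higher (12.6%). Among the 12147 regions, 756 (6.22%) were called with SAP30 higher and 1020 (8.4%) with SIN3B higher. Of the SAP30-higher regions 677 were at promoters and 79 were distal, and of the SIN3B-higher ones 835 and 185. The gene calls fell to 274 and 376 with SAP30 higher and to 557 and 719 with SIN3B higher when SAP30 replicate 1 or 2 was left out. The region calls did not hold in either case. The spread in those fits came from the SIN3B replicates alone, and without a SIN3B library it comes from the SAP30 replicates alone. At promoters, ranks agreed less between the SIN3B replicates, with a Spearman's rho of 0.74 against 0.84. The fit with all 4 libraries pools both proteins, so its p-values may understate the spread of SIN3B. Without SIN3B replicate 1 the region calls were 1887 and 1862, and without replicate 2 they were 2019 and 2032.

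Ranks within a protein were far more alike than ranks between proteins. At promoters with both, Spearman's rho over the 9963 regions was 0.84 between the SAP30 replicates and 0.74 between the SIN3B replicates, and 0.40 to 0.42 over the 4 pairs of a SAP30 and a SIN3B library. Away from promoters the SAP30 replicates kept a rho of 0.82 over 2184 regions, the SIN3B replicates had 0.33, and the pairs between proteins 0.31 to 0.35. SIN3B ranks at distal sites therefore differed as much between replicates as between proteins. These are correlations across regions, which are not independent replicates, and libraries of one protein share an antibody.

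The promoters with the largest differences in favour of SAP30 belonged to ATIC, SPIRE2, EEF1A1, TMEM38A, BRCA2, ADGRB3, EPOP, MTHFD1L, BICDL1 and TBC1D16. ATIC, an enzyme of purine synthesis, ranked at 0.737% and 1.05% for SAP30 and at 67.2% and 94.1% for SIN3B. The difference was 3.76 ± 0.40 (SE) on the normal-score scale, with a limma adjusted p of 8.81e-05. MTHFD1L, the mitochondrial enzyme of one-carbon metabolism, ranked at 0.92% and 0.0886% for SAP30 and at 46.4% and 31.3% for SIN3B. BRCA2, which acts in homologous recombination and shares its promoter with ZAR1L, ranked at 0.377% and 0.647% against 58.7% and 47.0%. EEF1A1, the translation elongation factor gene, was the 1 of the 10 with SIN3B still in the upper range, at 0.02% and 0.00571% for SAP30 and 19.2% and 19.4% for SIN3B. The SAP30 and SIN3B libraries did not overlap at any of the 10. The call at ADGRB3 joined summits of separate start sites, since its nearest SIN3B summit was 563364 bp from the SAP30 summit, and with a 500 bp promoter window its difference was -0.088. That of TMEM38A, where the summits lay 847 and 822 bp apart, was -0.39 with a 3000 bp window.

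The promoters with the largest differences in favour of SIN3B belonged to IDH3B, CCT6B, NGDN, KRR1, CDKAL1, GATB, SLC4A1AP, SLC25A53, RECQL5 and SMG8. IDH3B, a subunit of the citrate cycle enzyme isocitrate dehydrogenase 3, held the top of the first SIN3B list, with ranks of 0% and 0.0404% for SIN3B and 34.7% and 44.8% for SAP30. Its difference was -5.22 ± 0.42 (SE), with a limma adjusted p of 1.48e-05. NGDN and KRR1 encode factors of small ribosomal subunit assembly. NGDN ranked at 0.232% and 0.0807% for SIN3B and 51.5% and 60.7% for SAP30, and KRR1 at 0.625% and 0.141% against 50.9% and 62.6%. CDKAL1, a tRNA-modifying enzyme, ranked at 0.173% and 0.184% against 43.5% and 52.3%, and GATB, which makes glutaminyl-tRNA in mitochondria, at 0.095% and 0.0269% against 33.6% and 30.4%. Several were shared by genes that face away from each other, CCT6B with ZNF830, SLC4A1AP with SUPT7L, and RECQL5 with SAP30BP. At all 10 both SIN3B libraries stood in the best 1.301% of their list, and no SAP30 library ranked better than 17.0%.

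**Figure D2:**
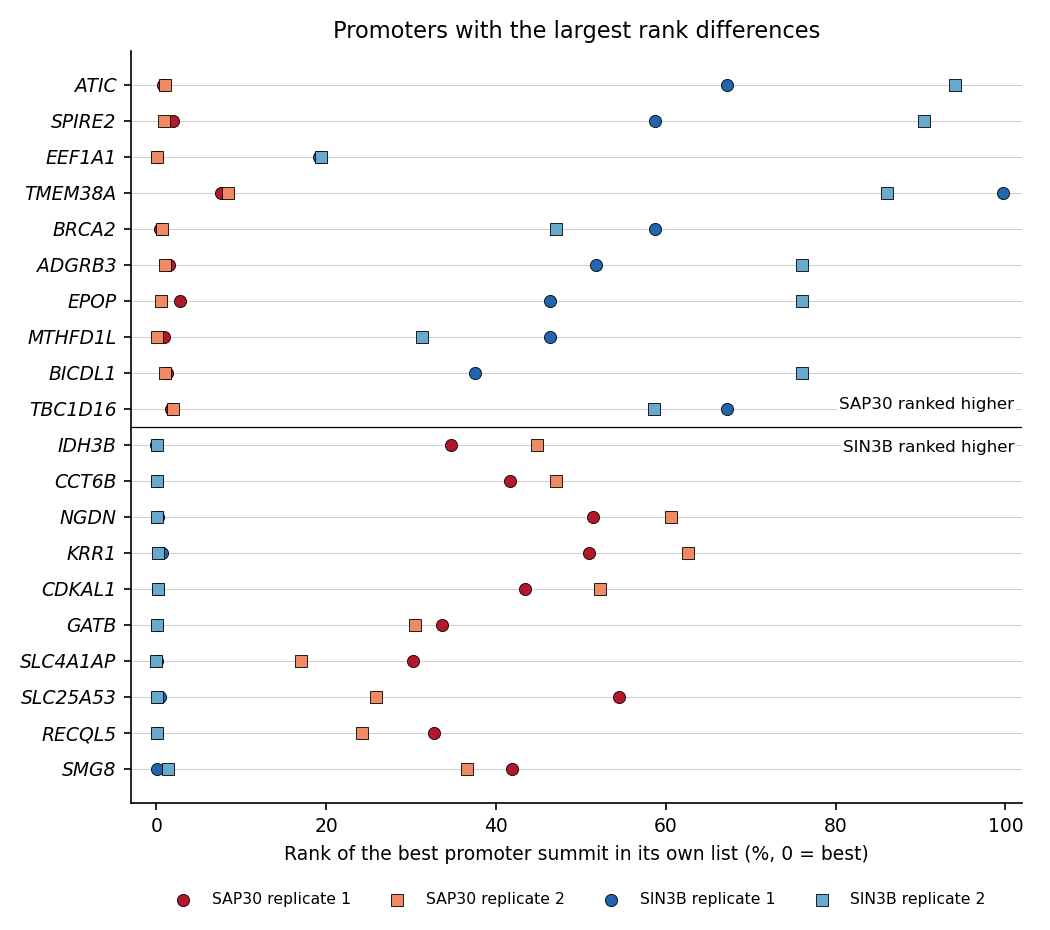
Rank of the best promoter summit in its own list (x axis, %, 0 is best) for the 10 genes with the largest limma difference in each direction, 1 row per gene; red and orange points are the SAP30 replicates and dark and light blue points the SIN3B replicates. In the upper 10 rows both SAP30 points lie at or below 8.40% and the SIN3B points lie to their right, and in the lower 10 rows both SIN3B points lie at or below 1.301%.

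Promoters with start sites on both strands were more frequent among those led by SIN3B. Of promoter regions with a protein-coding start site, 163 of 789 SIN3B-higher regions (20.7%, 17.9 to 23.6) had such starts on both strands, against 971 of 7898 uncalled regions (12.3%, 11.6 to 13.0), 59 of 644 SAP30-higher regions (9.16%, 7.05 to 11.7) and 44 of 1274 with SAP30 alone (3.45%, 2.52 to 4.61). Among promoters with both proteins, the other SIN3 scaffold was more frequent where SAP30 ranked higher than SIN3B. SIN3A had summits in both lists at 84.2% of the 677 SAP30-higher promoters (81.2 to 86.9), 55% of uncalled ones and 31.3% of the 835 SIN3B-higher ones (28.1 to 34.5). Pol II stood at 94.2%, 96.5% and 98.1% of these promoters and H3K4me3 at 98.1%, 98.3% and 98.6%. In the classes by presence the order for SIN3A was the reverse, at 1.38% of promoters with SAP30 alone and 48.9% of those with SIN3B alone. The labels named the same input for SIN3A as for SAP30. What part the input or the SAP30 rank had in the SIN3A shares was not tested. The part of region width in the shares of this paragraph was not tested either.

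In 200 bp around the SAP30 summit, the E-box was present at 27.3% of the 677 SAP30-higher promoters (24.0 to 30.9), 8.69% of uncalled ones and 5.39% of the 835 SIN3B-higher ones. In 200 bp around the SIN3B summit, the ETS motif was present at 30.8% of SIN3B-higher promoters (27.7 to 34), 13.2% of uncalled ones and 7.98% of SAP30-higher ones, and the YY1 motif at 12.9%, 3.59% and 1.18%. The shares were then followed along the difference. The 9963 promoter regions with both proteins were ordered by the SAP30 minus SIN3B difference and divided into 10 equal parts, and motifs were looked for on both strands in 200 bp around the mean of the 4 summits. The E-box CACGTG was present in 15.8% of windows in the part most favourable to SAP30 (13.6 to 18.3), 5.42% in the fifth part and 5.52% in the part most favourable to SIN3B. ETS sites (CCGGAAG) rose in the opposite order, from 8.43% (6.78 to 10.3) to 26.9% (24.2 to 29.7), and YY1 sites (AAGATGGC) from 0.903% to 10.8% (8.97 to 12.9). NFY sites (CCAAT) ran from 15.4% to 20.8%, CRE sites (TGACGTCA) from 0.903% to 4.21%, and SP and KLF sites (GGGCGG) fell from 67.5% to 39.6%. In 200 bp around all protein-coding start sites the shares were 5.41% for the E-box, 10.6% for ETS, 3.40% for YY1, 23.4% for NFY, 1.70% for CRE and 48.2% for SP and KLF. The letters of no motif searched were held within those of another, though matches can overlap at their ends. Those letters were set after shares of short words in these windows had been seen, and the intervals do not cover that choice.

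**Figure D3:**
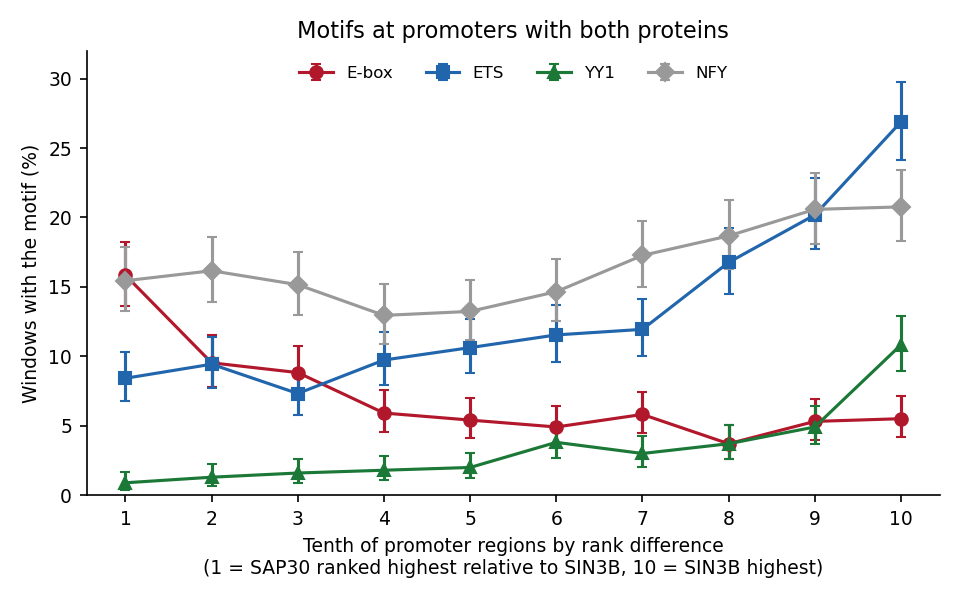
Share of 200 bp windows with a motif (y axis, %) in 10 equal parts of the 9963 promoter regions with both proteins (x axis), from SAP30 ranked highest relative to SIN3B (1) to SIN3B highest (10); bars are exact binomial 95% intervals. The E-box goes from 15.8% down to 5.52%, while ETS goes from 8.43% up to 26.9%, YY1 from 0.903% to 10.8% and NFY from 15.4% to 20.8%.

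Base composition moved in the same order, with a median GC content of 72.5% in the part most favourable to SAP30 and 63% in that most favourable to SIN3B. Within 4 equal classes of GC content, the E-box was present at 16.4% to 22.2% of SAP30-higher promoters, 5.36% to 7.16% of uncalled ones and, in the 3 classes with over 100 such regions, 4.89% to 6.86% of SIN3B-higher ones. In the class richest in GC, only 34 regions were SIN3B-higher, and 5 of them (14.7%) held an E-box. The same 3 classes had ETS sites at 27.8% to 27.9% of SIN3B-higher promoters, 11.5% to 15% of uncalled ones and 8.24% to 12.2% of SAP30-higher ones. Ordered by SAP30 rank alone, the E-box fell from 20.7% in the best of 10 equal parts to 3.61% in the worst, while ETS ran only from 15.8% to 12%. Ordered by SIN3B rank alone, ETS fell from 28.9% to 5.72% and the E-box from 10.8% to 5.62%. The E-box thus went mainly with the SAP30 rank and the ETS site with the SIN3B rank.

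The summits themselves lay near these motifs to an unequal extent. In the 1814 promoter regions with exactly 1 E-box within 500 bp of the centre, 24.8% and 25.3% of SAP30 summits were within 50 bp of it, against 15.5% and 10.1% of SIN3B summits. The medians were 164 and 154 bp for SAP30 and 220 and 236 bp for SIN3B. At the 902 regions with 1 YY1 site the order was the reverse, with 11.4% and 12.9% of SAP30 summits and 22.3% and 19.96% of SIN3B summits within 50 bp. At the 2453 regions with 1 ETS site the SIN3B replicates disagreed, at 23.2% and 13.2%, against 12.7% and 14.3% for SAP30. The median distances there were 129.5 and 154.5 bp for SIN3B and 172.5 and 174.5 bp for SAP30, without overlap. Away from promoters, at 435 regions with 1 E-box, 30.3% and 30.8% of SAP30 summits and 17.7% and 14.5% of SIN3B summits were within 50 bp.

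Distal sites differed from promoters in their motifs. AP-1 sites were found around the SAP30 summit at 38.3% of the 5763 distal regions with SAP30 alone, 30.5% of the 2184 with both proteins and 32.2% of all 20217 distal regions. C/EBP-like sites stood at 6.44%, 3.34% and 4.72%. At promoters, AP-1 sites stood at 9.74% of the 1663 regions with SAP30 alone, 3.11% of the 9963 with both proteins and 4.79% of all. The shares over all regions are for windows around the midpoint of a region. In the distal regions with both proteins, the E-box share fell from 19.6% in the part most favourable to SAP30 to 2.74% in that most favourable to SIN3B, the same direction as at promoters, whereas the ETS share went from 3.65% to 6.85%. A motif match is a run of letters and not a measured site of a factor.

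Distal regions among the 5 that ranked best for SAP30 without SIN3B were in introns of TSPAN14, MED26, RIN2 and CELF1. That in TSPAN14 (chromosome 10, 82258722 to 82258728) had SAP30 ranks of 11.1% and 5.19%, and that in RIN2 (chromosome 20, 19945391 to 19945397) ranks of 18.8% and 6.30%. Their nearest SIN3B summits lay 11044 and 25183 bp and 9393 and 10103 bp away. None of these 4 had SIN3A, and 3 had H3K9Ac in both lists. The best distal regions with SIN3B alone lay in introns of PLEC (at 2 places), HOOK2, ACTN4 and ZNF250. All 5 lay within 3000 bp of a protein-coding start site and had a SAP30 summit between 1225 and 2262 bp away. The region in HOOK2 was 1320 bp from the start of JUNB, an immediate early AP-1 gene, and ranked at 8.82% and 11.4% for SIN3B.

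Among distal regions with both proteins, the largest differences in favour of SAP30 were at an intron 15147 bp from SKOR1 and in or near EHF, PCDH8, DNAJB6 and UNC5A. The region near SKOR1 (chromosome 15, 68132518 to 68133484) ranked at 0.00857% and 0.04% for SAP30 and 37.5% and 63.7% for SIN3B, a difference of 3.91 with a limma adjusted p of 0.00118. The DNAJB6 intron (chromosome 7, 157197806 to 157198036), whose window with an E-box, an AP-1 and a C/EBP-like site is printed above, ranked at 0.426% and 0.194% against 22.3% and 47.0%, and had SIN3A in both lists but no Pol II or H3K4me3. In favour of SIN3B the largest were near MAGED4, BOLA3, GADD45A, IER5 and NR3C1. The intergenic region 27660 bp from BOLA3 (chromosome 2, 74347185 to 74347559) ranked at 0.814% and 1.13% for SIN3B and 37.5% and 56.5% for SAP30, a difference of -3.45 with a limma adjusted p of 0.00161, and had Pol II, H3K4me3 and H3K9Ac in both lists. GADD45A and IER5 are stress-induced early response genes, and their regions lay 1732 and 1952 bp from the start site, in an intron and a 3′ UTR. The adjusted p-values come from 1 limma fit in which promoter and distal regions share information on the spread. The SIN3B replicates had a rho of only 0.33 at distal regions, so these p-values may understate the spread there.

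The distance between the summits of SAP30 and SIN3B was measured in regions with all 4 libraries, from the best-ranked summit of each. At promoters the median distance was 134 to 146 bp over the 4 pairs of a SAP30 and a SIN3B library. It was 51 bp between the SAP30 replicates and 124 bp between the SIN3B replicates in the same regions. Away from promoters the pairs gave 98 to 124 bp, the SAP30 replicates 53 bp and the SIN3B replicates 130 bp. The distance between the proteins was therefore larger than that between SAP30 replicates and close to that between SIN3B replicates. Summits within 100 bp of each other made up 39.9% to 42.5% of promoter regions between proteins, 70.7% between SAP30 replicates and 44.5% between SIN3B replicates.

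**Figure D4:**
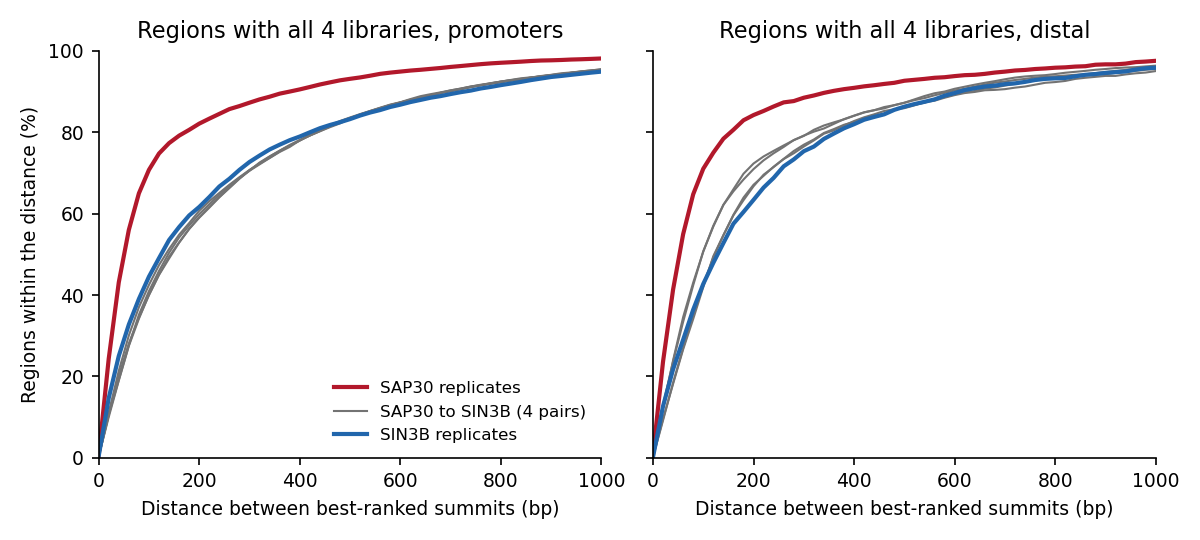
Share of regions with all 4 libraries (y axis, %) whose best-ranked summits lay within a given distance (x axis, bp), at promoters (left, 9963 regions) and away from them (right, 2184 regions); the red line is the pair of SAP30 replicates, the blue line the pair of SIN3B replicates and the grey lines the 4 pairs between the proteins. The red line stands above the others, with medians of 51 and 53 bp, and the blue and grey lines run close together.

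Best-ranked summits were called separate where the smallest distance between SAP30 and SIN3B exceeded the larger distance between replicates of either protein. This held at 2153 of the 9963 promoter regions (21.6%), and at 1155 (11.6%) the gap was also over 200 bp. The distal counts were 343 of 2184 (15.7%) and 135 (6.18%). Weaker summits were left out of these counts, and no share by chance was set beside them. Along the direction of transcription, at 6542 promoters with starts on 1 strand, the median SAP30 summit was 73 and 66 bp downstream of the start site and the median SIN3B summit 24 and 69 bp downstream. Relative to the SAP30 summits, SIN3B replicate 1 had median positions of -37 and -35 bp and replicate 2 of -12 and -7 bp, where negative values are upstream. The SIN3B replicates differed from each other by 21 bp, so the offset of replicate 2 was within the spread between replicates. At the 637 such promoters with gaps over 200 bp, SIN3B lay downstream at 42.7% (38.8 to 46.6).

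The promoters with the largest distances held by all pairs were at CLIC1, PTCH1, CCND1, SAMD10 and STK3. At CCND1, the gene of cyclin D1 (chromosome 11, 69455651 to 69459260), the best SAP30 and SIN3B summits were at least 3104 bp apart while replicates lay within 50 bp of each other, with ranks of 17.0% and 19% for SAP30 and 15.8% and 21.3% for SIN3B. At SAMD10, which shares the region with the splicing factor gene PRPF6, the distance was 3096 bp and replicates lay within 20 bp. At PTCH1, the receptor of Hedgehog ligands, the distance was 3506 bp and replicates lay within 963 bp. In each of the 5 regions weaker SIN3B summits lay 3 to 222 bp from the best SAP30 summit, so it was the place of the best summit and not the presence of SIN3B that differed.

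Genes of known groups differed in which protein ranked higher. The counts are set beside those over all 10179 genes tested, where 10.8% were called with SAP30 higher and 12.6% with SIN3B higher and the median difference was 0.08. Of 40 genes of mitosis and the G2/M phase, 39 had both proteins, 19 were called with SAP30 higher (48.7%) and 0 with SIN3B higher, and the median difference was 1.22. CCNB1, the gene of cyclin B1, ranked at 0.306% and 0.254% for SAP30 and 8.33% and 22.9% for SIN3B, a difference of 1.99 ± 0.40 (SE) with a limma adjusted p of 0.00398. PLK1, a mitotic kinase, ranked at 1.01% and 0.887% against 14.5% and 26.0%. Of 46 genes of DNA replication and E2F control, 45 had both proteins, 17 were called with SAP30 higher (37.8%) and 1 with SIN3B higher, with a median difference of 0.84. MCM10, an initiation factor of replication, stood at 0.00571% and 0.0371% for SAP30 and 2.35% and 7.56% for SIN3B, and CDC6, which loads the MCM helicase, at 0.0229% and 0.131% against 9.16% and 13.3%. The exception was RFC4, a clamp loader subunit, with a difference of -1.20.

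SIN3B ranked higher at genes of mitochondria. Of 75 mitochondrial ribosomal protein genes, 72 had both proteins, 34 were called with SIN3B higher (47.2%) and 1 with SAP30 higher (MRPL15), and the median difference was -1.11. MRPS22 ranked at 0.688% and 0.558% for SIN3B and 39.2% and 39.2% for SAP30, a difference of -3.79 ± 0.37 (SE) with a limma adjusted p of 8.16e-05. MRPL9 ranked at 0.103% and 0.0987% against 25% and 22.5%. Of 75 genes of oxidative phosphorylation, 73 had both proteins, 32 were called with SIN3B higher (43.8%) and 1 with SAP30 higher (ATP5PB), with a median of -0.87. NDUFB7, a subunit of complex I, ranked at 0.365% and 2.44% for SIN3B and 28.6% and 29.7% for SAP30, and SDHC, a subunit of complex II, at 4.20% and 3.56% against 34.5% and 28.8%. Of 77 cytosolic ribosomal protein genes, 76 had both proteins, 17 were called with SIN3B higher (22.4%) and 1 with SAP30 higher (RPSA), with a median of -0.60. RPS18 ranked at 0.749% and 0.594% for SIN3B and 14.2% and 23.6% for SAP30. Of 249 zinc finger genes of chromosome 19, taken by their ZNF symbols, 199 had both proteins, and 39 were called with SIN3B higher (19.6%) against 7 with SAP30 higher.

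The sign of the median held for the mitotic, replication, mitochondrial ribosomal, oxidative phosphorylation and cytosolic ribosomal lists in each of 9 other settings, percentage ranks and omission of any library included. The replicate number as a block was among those settings. It cannot change a median, since each protein has both numbers. The number of mitotic genes with SAP30 higher ranged from 4 to 24 over these settings and that of replication genes from 4 to 19, with 4 for both lists when SAP30 replicate 1 was left out, 7 when replicate 2 was, and 5 and 7 with percentage ranks. The number with SIN3B higher ranged from 20 to 37 for mitochondrial ribosomal genes, 16 to 34 for oxidative phosphorylation and 6 to 20 for cytosolic ribosomal genes.

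**Figure D5:**
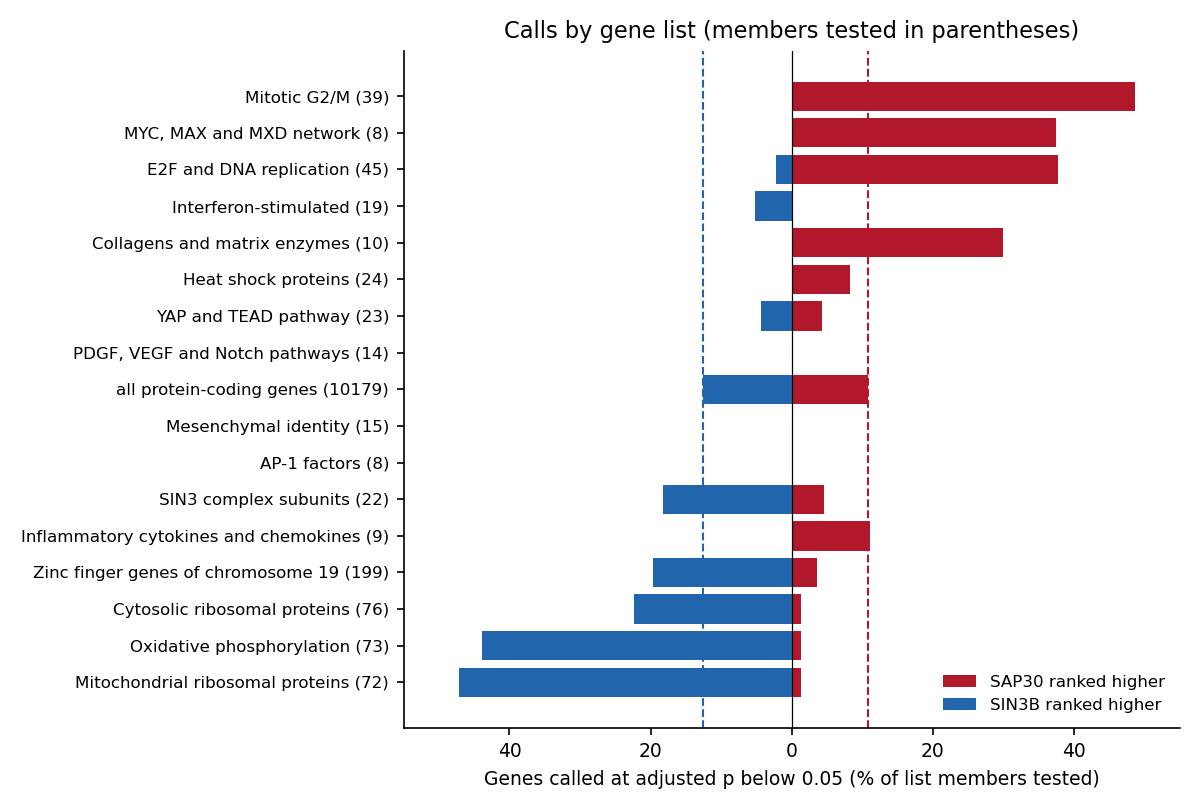
Share of list members called by limma (x axis, % of the members with both proteins), to the right with SAP30 ranked higher (red) and to the left with SIN3B ranked higher (blue), for lists with at least 8 members tested, the number in parentheses; dashed lines mark the shares over all genes, 10.8% and 12.6%. The mitotic list reaches 48.7% to the right, and the mitochondrial ribosomal list 47.2% to the left.

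Genes of the MYC, MAX and MXD network, the proteins that bind E-boxes, had both SAP30 and SIN3B at 8 of 13 members. Of these 8, 3 were called with SAP30 higher (37.5%, against 10.8% over all genes tested) and 0 with SIN3B higher. With percentage ranks only 1 of the 8 was called. Fewer were also called without SAP30 replicate 1. MAX ranked at 0.366% and 0.597% for SAP30 and 23.1% and 10.1% for SIN3B, MXD3 at 0.309% and 0.434% against 11.8% and 12.1%, and MLXIP at 2.23% and 4.09% against 41.5% and 22.7%. Heat shock genes had both proteins at 24 of 30 members. Of these 24, 2 (8.33%) were called for SAP30, below the 10.8% over all genes tested. Among them was HSF1, the master regulator of the response, at 0.00286% and 0.0229% for SAP30 and 4.82% and 3.77% for SIN3B. Of the YAP and TEAD list 23 of 24 genes had both proteins, with TEAD4 called for SAP30 (1.40) and ANKRD1 for SIN3B (-1.15). The calls were 4.35% of the 23 in each direction, below the 10.8% and 12.6% over all genes tested. The own-list ranks of ANKRD1 were alike for the proteins, at 40.3% and 36.4% for SAP30 and 33.2% and 33.8% for SIN3B, since the test compares places among the genes with both proteins.

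Among the SIN3 subunits' own genes, 22 of 28 had both proteins. PHF12 ranked at 13.9% and 14.8% for SIN3B and 58.4% and 60.7% for SAP30 (-2.90), and SAP18 at 13.5% and 10.1% against 36.2% and 37.0% (-2.04). MORF4L1 (-1.40) and ARID4B (-1.31) were also called with SIN3B higher. KDM5B, an H3K4 demethylase, was called with SAP30 higher, at 1.42% and 0.600% against 10.7% and 15.5%. RBBP7 and TET1 had SAP30 alone and ING2 had SIN3B alone. SIN3A had SIN3B in both lists and SAP30 in 1, and SIN3B had SAP30 in both lists and SIN3B in 1. HDAC1 and HDAC2 were not called. Of the 22 genes, 4.55% were called with SAP30 higher and 18.2% with SIN3B higher, against 10.8% and 12.6% over all genes tested.

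Lists of tissue-restricted genes varied in the share with SAP30 alone, which over all protein-coding genes was 5.38%. SAP30 was alone at 7 of 30 neuronal genes repressed through REST (23.3%), among them CELSR3, CPLX2, CHGB and SNAP25, and both proteins were present at 3 (10.0%), BDNF, L1CAM and TUBB3. Of these 3, L1CAM and TUBB3 were called with SAP30 higher (66.7%, against 10.8% over all genes tested). L1CAM, a neural adhesion molecule, ranked at 4.92% and 3.73% for SAP30 and 34.8% and 76.0% for SIN3B (2.11). SAP30 was alone at 5 of 25 luminal and epithelial genes (20%), PGR, ESRP1, FOXA1, MARVELD2 and TFF1, and both proteins were present at 6 (24.0%). PGR and ESRP1 ranked at 90.5% and 99.1% and at 96.6% and 97.0% for SAP30, near the end of the lists. Collagen and matrix enzyme genes had SAP30 alone at 6 of 38 and both at 10. Of these 10, COL4A1 and COL4A2, which share a promoter, and TIMP3 were called with SAP30 higher (30%, against 10.8% over all genes tested). With percentage ranks 2 of the 10 were called, and with a 3000 bp promoter window 1 of 13. Fewer were also called when either SAP30 library was left out. HOX genes had both proteins at 2 of 39 and SAP30 alone at 3. Mesenchymal genes had both at 15 of 26 and SAP30 alone at 2 (PRRX1 and ZEB2), interferon-stimulated genes both at 19 of 38 and SAP30 alone at 5, and cytokine genes both at 9 of 27 and SAP30 alone at 3.

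With the 1000 bp window, AP-1 factor genes were the list with the most members on the SIN3B side of the classes. FOS had SIN3B alone, and JUN, JUNB and MAFK had SIN3B in both lists and SAP30 in 1, 4 of 17 genes, against 73 and 136 of 20098 genes in those 2 classes. JUNB ranked at 2.78% and 4.24% for SIN3B and at 3.07% in SAP30 replicate 2, with no summit of replicate 1 within 1000 bp of a start site. Both proteins were present at 8 of the 17, and 0 of these 8 were called by limma. These classes depended on the window, since 13 of the 17 had both proteins with a 3000 bp promoter window. The nearest SAP30 summits at FOS were 1544 and 1678 bp away. Of the PDGF, VEGF and Notch pathway list, 14 of 33 genes had both proteins, 5 had SAP30 alone and 1, the Notch ligand gene JAG1, had SIN3B alone with ranks of 24.7% and 27.3%.

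The genes that the study followed in its other assays were also examined. IPO13 ranked at 4.50% and 2.81% for SAP30 and 7.45% and 7.10% for SIN3B, and RDX at 4.55% and 1.54% against 16.2% and 16.4%, with neither called (limma adjusted p = 0.588 and 0.0643). HSPA6 had both proteins, at 28.2% and 37.0% for SAP30 and 86.1% and 49.7% for SIN3B. NOTCH3, ADM2 and PDGFD had SAP30 alone, at 86.8% and 68.5%, 47.2% and 68.2%, and 24.8% and 50.6%. ARTN and CLDN1 had SAP30 in both lists and SIN3B in 1, and PDGFB had a summit in 1 SAP30 library only. A missing SIN3B summit may lie below detection and is not evidence that the protein was absent. By ChIP-qPCR in the same line, the paper reported SIN3B at PDGFD, CLDN1, RDX and ADM2, with less of it after SAP30 knockout. From its ChIP-seq the paper also reported SAP30, SIN3A and SIN3B at coactivated genes as a group, and showed browser views of PDGFD and RDX.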

How the data were processed

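The authors immunoprecipitated formaldehyde-fixed, sonicated chromatin of MDA-MB-231 cells and called peaks for each library. The submitters' processing notes name FastQC 0.11.2, Bowtie2 2.3.3.1, Picard, MACS2 2.1.0 and the hg19 build, with no options given. The deposited files hold 1 bp summits per library with a score that the authors' peak caller gives as the −log10 q-value. Which control entered each list and the read depth were not given in the sources used here, so scores served only as ranks within a list, tied scores taking their mean rank. The members and gene lists were chosen with earlier results of these data known.

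Summits on autosomes and X were joined within 1000 bp. Promoters were 1000 bp on each side of a GENCODE release 44 start site lifted to GRCh37, the same build. The feature of a distal region was read at its midpoint, a UTR taking precedence over other exons and an exon over an intron. limma 3.58.1 in R 4.3.3 compared normal scores of ranks over features present in all 4 lists, SAP30 against SIN3B, 2 libraries each, with Benjamini-Hochberg adjustment, two-sided, at 0.05. Shares carry exact binomial 95% intervals. The letters of each motif, and the C/EBP-like motif as a whole, were set after shares of short words in these windows had been seen. Sequence came from GRCh37.

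Named genes were the 10 best of each class without the other protein, the 10 largest limma differences per direction, the 5 best distal regions by the same rules, the 5 largest summit distances and list members with the largest differences. The fit was tested on simulated data. Alternatives were other joining distances, windows, list lengths, rank scales and omission of each library. Same-numbered replicates were not paired by the labels, and their deviations had a correlation of -0.01 over regions. SIN3A, Pol II, H3K4me3 and H3K9Ac lists served only for presence at the regions; inputs and H3 libraries were not analysed here. A few members chosen by these rules are not reported here.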

Additional observations from a re-analysis of the deposited data

Results flagged for a closer look

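The SAP30 lists held summits on the mitochondrial genome, 10 in replicate 1 and 16 in replicate 2, and 3 each on chromosome Y, where the SIN3B lists held none. These summits entered no comparison. The cause was not tested.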

How the results depend on the processing

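The 20 named rank differences kept their direction in the settings that could test them, except at ADGRB3 with a 500 bp promoter window (-0.088) and TMEM38A with a 3000 bp window (-0.39). TBC1D16 and TMEM38A gave no value with the 500 bp window, and ADGRB3 none where best summits had to lie within 1000 bp. With the 500 bp window 17 of 20 were called in the same direction. With the replicate block, limma called 1331 and 1429 genes (SAP30 higher, SIN3B higher) and 713 and 954 regions, within 1.5 times the counts without it, and all 2379 genes called without the block were among those called with it. The numbers did not pair the samples. Percentage ranks in place of normal scores gave 644 genes with SAP30 higher and 282 and 498 regions.

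Omission of 1 library in turn gave wide ranges. Genes called ran from 274 to 1398 with SAP30 higher and from 557 to 1475 with SIN3B higher, and regions called from 0 to 2019 and from 0 to 2032. The lowest gene counts came without SAP30 replicate 1 and the 0 counts without either SAP30 replicate. The lone library of a protein is then assumed to vary like those of the other. Regions with SAP30 alone ran from 8844 to 12297, those with SIN3B alone from 332 to 1542, genes with SAP30 alone from 1196 to 1709 and those with SIN3B alone from 85 to 160. By construction a protein with 1 list is counted more loosely. The SAP30 share with SIN3B ran from 73.0% to 82.9% at promoters and from 14.4% to 41.3% away from them, and the summit distance from 134 to 141 bp and from 91 to 118 bp.

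Joining within 200 bp gave 7936 regions with both proteins, 3017 with SIN3B alone and a promoter share of 50.3%. Joining within 500 bp gave 1473 with SIN3B alone, 69.7% and a distance of 119 bp, and joining within 2000 bp gave 43 with SIN3B alone. The count of regions with SIN3B alone thus depended on the joining distance. With lists of equal length the values were 3224 and 405 regions with SAP30 or SIN3B alone, 80.4% and 30.1% for the promoter and distal shares, and 158 and 138 genes high for 1 protein. The better-ranked 50% of each list gave 7565 regions with both, 3951 with SAP30 alone, 63.0% and 127 bp. The nearest pair of summits gave 98.8 and 87.9 bp. Promoter windows of 500 and 3000 bp gave 310 and 7 genes with SIN3B alone, and the wider window a promoter share of 71.1%. With high as the best 10% the counts were 36 and 13 genes, and with low as the worst 25% SAP30-high genes numbered 93. In settings chosen after seeing the data, 3 genes and 37 regions had SIN3B alone with no SAP30 summit within 3000 bp. Causes of these changes were not tested. Depth was unknown, so a missing summit may lie below detection.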
